A study of Mus musculus with 18 samples.

Results

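H3K79me2 coverage of genes was compared between Th1 cells and naive T cells of the mouse. Of the 18 libraries of the series 6 were used: the 3 H3K79me2 peak lists of Th1 cells and the 3 of naive cells. The lists were taken by their labels, and the Th2 libraries and all inputs were left out. Naive cells were sorted as CD44- CD62L+ cells straight from spleens of WT mice. Th1 cells grew for 4 days from enriched CD4+ T cells on plates coated with antibodies to CD3 and CD28, in medium holding the cytokines IL-12 and IL-2 and an antibody that blocks IL-4, and were sorted as YFP+ cells from mice with 3 reporter alleles, IL-4 Amcyan, IL-13 dsRed and IFNg-YFP. Both groups carried the genotype label WT, although the reporters are added alleles of the Th1 group. Chromatin was fixed with 0.6% formaldehyde and pulled down with 2 µg of anti-H3K79me2 in both groups. Culture, mouse strain and cell state changed together and cannot be told apart, and the sorted Th1 cells are the IFNg producers of their cultures. In each list the peaks were merged, and the part of each gene body that they covered was measured in percent and in kb, for 21631 protein-coding genes on chromosomes 1 to 19 and X of mm10.

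DOT1L is the enzyme that methylates lysine 79 of histone H3, a residue on the face of the nucleosome core and not on its tail. The mark follows RNA polymerase II along transcribed genes, is usually densest behind the start site and thins out towards the 3′ end. Naive CD4 T cells are quiescent cells that recirculate between lymphoid organs. A signal of the T cell receptor together with IL-12 turns them into Th1 cells, which make IFNg, home to inflamed tissue and are governed by the transcription factor T-bet.

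The naive lists covered 279, 276 and 285 Mb and the Th1 lists 240, 222 and 217 Mb. Every Th1 list covered less than every naive list, by -53.6 Mb in the mean (2-sided exact permutation p = 0.1, adjusted p = 0.167 over 5 measures per list, 0.1 being the smallest p that 3 lists against 3 allow). Genes covered over at least 50% of their length numbered 7119, 7058 and 7244 in the naive lists and 6085, 5624 and 5597 in the Th1 lists, a mean difference of -1372 that was -428 with all lists cut back to the same covered length. Genes covered over at least 95% numbered 2272, 2195 and 2261 against 1929, 1600 and 1664 (exact permutation p = 0.1, adjusted p = 0.167 for both counts). The number of genes touched by any peak was nearly the same, 10923 ± 39.1 in naive and 10812 ± 101 in Th1 lists (SD, n = 3 each). The number of genes reached thus differed little beside the covered length. Covered bases lay in protein-coding genes to 87.7% ± 0.260 and 87.8% ± 0.586 (exact permutation p = 0.8, adjusted p = 0.8). A gene covered over at least 50% was covered in 2.70 ± 0.0601 and 2.82 ± 0.0949 separate stretches (exact permutation p = 0.2, adjusted p = 0.25), a difference of 0.113 that was 1.13 at the same covered length. The lists give no read depth, so its part in these differences was not tested, and the labels do not say that the 3 lists of a group came from separate animals. All p-values measure the spread between lists, which may be technical.

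Coverage was lower in Th1 cells for many genes and higher for fewer, and most losses were partial. No list had a peak on 9786 genes, and 639 were fully covered in all 6 lists, which left 11206 genes to test. A gene was called where limma's Benjamini-Hochberg adjusted p was under 0.05 and the means differed by at least 25 percentage points. Coverage was called higher in Th1 cells for 503 genes (4.49%) and lower for 1887 (16.8%). All 3 Th1 lists lay above all 3 naive lists for 14.7% of the tested genes and below them for 54.3%. The median difference over the tested genes was -6.10 points. With every list centred to the same mean it was 2.44 points, with 746 genes higher and 1158 lower. With every list cut back to its strongest peaks until it covered as much as the shortest list (217 Mb), it was -1.61 points, with 801 higher and 1009 lower. Gains were thus 21.0% of the calls as deposited, 39.2% after centring and 44.3% at matched length. Of the 503 gains 503 and 475 were also called under these settings, and of the 1887 losses 1158 and 941 were. Centring took the mean difference of -8.53 points out of every gene alike, so no gain could fall under 25 points there. That all gains were kept after centring is thus no separate result. Losses whose calls ended after centring, and list medians given after centring below, follow from the same shift. Fewer were called again with peaks kept at −log10 q of 5 or more (326 gains and 1138 losses) and in the first 5 kb of the gene (294 and 613).

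The called genes were sorted by how complete the change was. Newly covered genes, under 5% in every naive list and at least 50% in every Th1 list, numbered 111, and 392 other genes were extended. Emptied genes, at least 50% in every naive list and under 5% in every Th1 list, numbered 91, and 1796 other genes were shortened. Complete switches numbered 111 against 91, but 160 against 191 with peaks kept at −log10 q of 5 or more. Partial losses outnumbered partial gains. The summed change was 2.88 Mb for newly covered, 6.21 Mb for extended, -2.33 Mb for emptied and -31.0 Mb for shortened genes. At matched length 250 genes were newly covered, 47 emptied and 962 shortened. These classes rest on the same values as the calls and describe them.

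**Figure D1:**
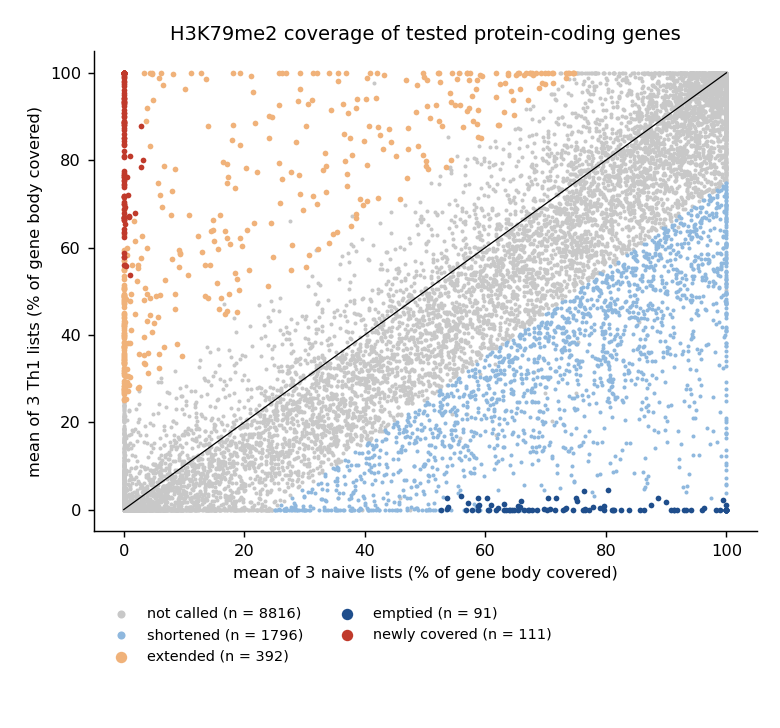
Percent of the gene body covered, as the mean of 3 naive lists (horizontal) and of 3 Th1 lists (vertical), with 1 point for each of the 11206 tested genes and the diagonal as a line of equal coverage. The 111 newly covered genes lie along the left edge, the 91 emptied genes along the bottom, and the 1796 shortened genes form a broad band below the diagonal.

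Gene length and position showed some differences. Of 2440 tested genes under 10 kb 8.07% were called higher, against 3.52% of those of 10 to 50 kb, 3.39% of those of 50 to 150 kb and 3.64% of longer ones. Calls lower took 16.8%, 18.5%, 14.4% and 12.1% of the same classes. By chromosome, calls higher ranged from 2.5% on chromosome 5 to 6.43% on chromosome 6, and calls lower from 9.85% on chromosome X to 20.6% on chromosome 6. Percent coverage cannot exceed 100, so a short gene that becomes covered gains many points and few kb.

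The newly covered genes are described by those with the largest gain in kb. Cdkn1a, the p21 inhibitor of cyclin-dependent kinases (chr17:29090979-29100722), was at 0% in each naive list and at 99.5%, 99.8% and 99.8% in the Th1 lists (limma, adjusted p = 8.3e-07). Zeb2, a zinc-finger repressor of terminal effector T cells (chr2:44983512-45117442), was at 0% in the naive lists and at 90.3%, 88.8% and 85.1% in the Th1 lists, a gain of 118 kb. No naive list overlapped a Th1 list for either gene, which the class itself requires. Gcnt1, which branches O-glycans into selectin ligands, rose from 0% to 66.9% ± 2.61, and Alcam, an adhesion molecule that binds CD6, from 0% to 71.7% ± 2.74 (adjusted p = 5.9e-06 and 5.6e-06). Pik3ap1, an adaptor that recruits PI3 kinase, rose from 0% to 69.97% ± 2.57, and Farp1, an exchange factor for small GTPases, from 0.653% ± 0.396 to 72.1% ± 2.59 (adjusted p = 5.3e-06 each). Adarb1, an adenosine deaminase that edits RNA, gained 83.2 kb and Setbp1, whose product binds the SET protein, 254 kb. Dyrk3, a kinase, reached 95.97% ± 2.27, Nrn1, which encodes the small anchored protein neuritin, 90.8% ± 1.17, Snx8, a sorting nexin, 56.0% ± 3.09 and Il18rap, a chain of the IL-18 receptor, 87.4% ± 1.65. These 12 genes, the 3 with the largest gain in kb in each of 4 length classes, gained between 8.04 and 254 kb. With peaks kept at −log10 q of 5 or more, the calls of Dyrk3 (64.9 points) and Snx8 (38.1 points) ended. Within the first 5 kb behind the annotated start that of Zeb2 (12.9 points) did too.

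**Figure D2:**
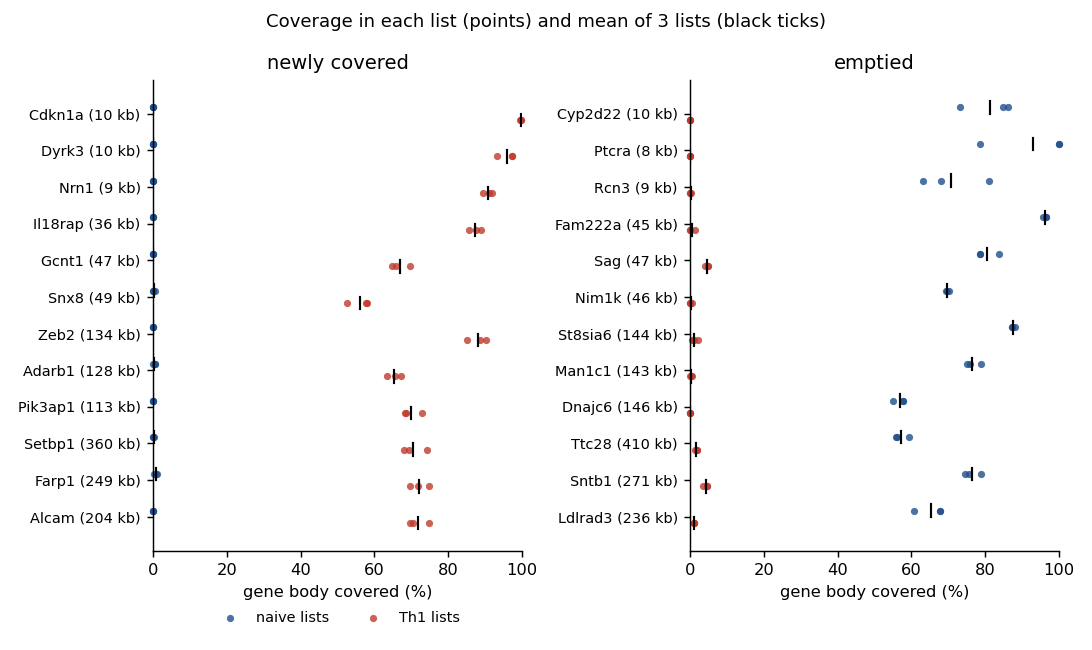
Percent of the gene body covered in each of the 3 naive lists (blue) and 3 Th1 lists (red), with black ticks at group means, for the 12 newly covered and 12 emptied genes named by gain or loss in kb within 4 length classes. Gene lengths in kb stand beside the names, and no gene has overlapping groups, which both classes require by definition.

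Promoters were examined for letters of motifs and for peaks. RefSeq gave a promoter at the annotated 5′ end for 10370 of the genes, 64 of them newly covered and 44 emptied, and the 250 bases before the start were searched on both strands. A peak touched this window in all 3 Th1 lists for 53.1% of the newly covered promoters, a count that follows in part from the class itself. The AP-1 motif TGANTCA was found in 17.2% of them and in 7.0% of all 10370 promoters. The STAT motif TTCNNNGAA was in 15.6% against 7.4%, the RUNX motif TGTGGT in 15.6% against 12.8%, and the T-box motif GGTGTGA in 6.2% against 3.1%. TGTGGT and GGTGTGA can share letters. In emptied promoters the shares were 6.8%, 4.5%, 2.3% and 2.3%. The median number of CpG dinucleotides was 8.0 in newly covered, 6.5 in emptied, 12.5 in extended and 14.0 in shortened promoters, against 15.0 over the 4652 tested genes with a promoter. Newly covered and emptied promoters were thus poorer in CpG than those of tested genes, while the median over all 10370 promoters was 7.0. Among the 4652 tested promoters the AP-1, STAT, RUNX and T-box motifs were in 4.4%, 6.4%, 11.2% and 2.8%. No test was made of these shares, and a match to letters is no evidence of binding.

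Among these windows 5 are shown because a peak lay on them in each Th1 list and in no naive list and because they held at least 2 different motifs. That of Rag1, a recombinase gene, was covered only in naive lists and held a pair of RUNX matches; all were chosen after their values were seen. Capitals mark motif matches on either strand, and sequences run 5′ to 3′ on the strand of the gene, from RefSeq on GRCm38.p6. The windows are chr14:56262335-56262584 on the minus strand for Gzmb (granzyme B), chr11:46454681-46454930 on the plus strand for Havcr2 (the inhibitory receptor TIM-3) and chr7:43436888-43437137 on the plus strand for Nkg7 (a protein of cytotoxic granules). They are chr11:4257318-4257567 on the plus strand for Lif (a cytokine of the IL-6 family), chr13:60936626-60936875 on the minus strand for Ctla2a (a protease inhibitor) and chr2:101649533-101649782 on the minus strand for Rag1.
Gzmb: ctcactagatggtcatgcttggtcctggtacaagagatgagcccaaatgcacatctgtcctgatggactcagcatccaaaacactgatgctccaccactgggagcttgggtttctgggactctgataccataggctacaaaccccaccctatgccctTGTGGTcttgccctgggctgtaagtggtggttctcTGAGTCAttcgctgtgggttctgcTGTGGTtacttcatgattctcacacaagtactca
Havcr2: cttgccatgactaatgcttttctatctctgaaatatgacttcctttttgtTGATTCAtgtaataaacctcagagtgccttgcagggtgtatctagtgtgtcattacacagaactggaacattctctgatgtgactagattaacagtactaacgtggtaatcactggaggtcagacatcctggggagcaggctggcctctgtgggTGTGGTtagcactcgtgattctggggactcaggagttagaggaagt
Nkg7: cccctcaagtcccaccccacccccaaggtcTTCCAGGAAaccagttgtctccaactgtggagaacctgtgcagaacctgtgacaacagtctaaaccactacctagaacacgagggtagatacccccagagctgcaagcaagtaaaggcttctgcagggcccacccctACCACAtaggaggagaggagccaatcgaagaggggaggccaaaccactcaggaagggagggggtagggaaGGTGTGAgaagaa
Lif: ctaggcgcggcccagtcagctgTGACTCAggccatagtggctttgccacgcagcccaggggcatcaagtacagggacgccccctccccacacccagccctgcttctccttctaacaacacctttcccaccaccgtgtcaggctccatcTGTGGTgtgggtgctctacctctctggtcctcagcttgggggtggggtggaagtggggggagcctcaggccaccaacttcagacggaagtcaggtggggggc
Ctla2a: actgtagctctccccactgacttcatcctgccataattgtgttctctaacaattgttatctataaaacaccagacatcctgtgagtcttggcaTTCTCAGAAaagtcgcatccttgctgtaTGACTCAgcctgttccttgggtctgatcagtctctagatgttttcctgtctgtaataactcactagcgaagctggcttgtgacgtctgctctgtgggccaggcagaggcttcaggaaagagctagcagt
Rag1: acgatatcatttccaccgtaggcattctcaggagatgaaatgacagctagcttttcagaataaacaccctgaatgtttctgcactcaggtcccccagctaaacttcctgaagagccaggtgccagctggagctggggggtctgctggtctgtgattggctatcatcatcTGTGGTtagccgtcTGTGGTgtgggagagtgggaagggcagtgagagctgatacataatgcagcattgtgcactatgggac

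Peaks covered 100% of the Gzmb, Havcr2 and Lif windows in each Th1 list. They covered 100%, 45.2% and 100% of the Nkg7 window and 100%, 33.2% and 47.2% of the Ctla2a window. The Rag1 window was at 100% in each naive list and at 0% in each Th1 list.

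Extended genes carried some of the mark in naive cells or fell short of a full switch. Chst11, a sulfotransferase of chondroitin chains (chr10:82984440-83195904), was at 6.09%, 5.96% and 5.44% in the naive lists and at 99.5%, 99.0% and 98.0% in the Th1 lists, a gain of 197 kb (adjusted p = 1.2e-06). It was covered in 11, 15 and 10 stretches in the naive lists and in 2 stretches in each Th1 list. Atxn1, a transcriptional corepressor gene, likewise went from 57, 61 and 61 stretches over 143 ± 12 kb to 11, 17 and 25 stretches over 380 ± 8.55 kb. Kcnq5, a potassium channel gene, gained 227 kb. Hk2, a hexokinase, rose from 1.91 ± 0.838 to 45.5 ± 1.62 kb and Il21, a cytokine gene, from 4.15 ± 0.582 to 9.88 kb. Among genes of 50 to 150 kb, Alpk2, an atypical kinase gene, rose from 6.33% ± 1.15 to 69.3% ± 3.04, and Agpat4, an acyltransferase of phospholipid synthesis, from 24.6% ± 5.99 to 89.8% ± 2.35. Hip1, a clathrin adaptor, was at 0% in the naive lists and at 61.2%, 57.4% and 46.1% in the Th1 lists. Only Th1 list 3, under 50%, kept Hip1 out of the newly covered class. Gabarapl1, an autophagy gene of the ATG8 family, rose from 13.6% ± 6.83 to 98.7% ± 2.29, C1qtnf6, a secreted C1q-like protein, from 13.9% ± 8.57 to 87.8% ± 12.1, and Tnfrsf8, the CD30 receptor, from 1.86% ± 1.52 to 61.4% ± 14.1. Cass4, a scaffold of focal adhesions, rose from 20.2% ± 1.49 to 78.2% ± 13.6, and for Tnfrsf8 and Cass4 the Th1 lists themselves ranged from 47.3% to 75.4% and from 68.7% to 93.8%. With peaks kept at −log10 q of 5 or more, the calls of Hip1 (34.9 points) and Kcnq5 (15.5 points) ended, and that of Agpat4 (24.0 points) did within the first 5 kb.

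Emptied genes are described by those with the largest loss in kb. Ptcra, the alpha chain of the pre-T cell receptor, was at 100%, 100% and 78.6% in the naive lists and at 0% in each Th1 list (adjusted p = 0.00014). Rag1, at 100% and 0%, and Cd8a, Arpp21 and Sox4, at 100%, 86.3% ± 0.375 and 79.6% ± 4.09 in naive and 0% in Th1 cells, were picked out after their values were seen. Fam222a (chr5:114568251-114613220) was covered over 96.6%, 95.7% and 96.5% in 1 stretch of 43.0 to 43.4 kb in the naive lists and over 0%, 0% and 1.27% in the Th1 lists. St8sia6, a sialyltransferase, fell from 87.5% ± 0.551 to 1.08% ± 0.937, and Man1c1, a mannosidase of the Golgi, from 76.6% ± 1.98 to 0.165% ± 0.153 (adjusted p = 1.5e-06 and 3.2e-06). Ttc28, a tetratricopeptide repeat gene, lost -227 kb, Sntb1, a syntrophin, -195 kb and Ldlrad3, of the LDL receptor class, -152 kb. Dnajc6, the clathrin uncoating factor auxilin, went from 56.8% ± 1.53 to 0%, Nim1k, a kinase, from 69.7% ± 0.405 to 0.149% ± 0.257 and Sag, an arrestin, from 80.4% ± 2.98 to 4.55% ± 0.430. Cyp2d22, a cytochrome P450 gene, went from 81.4% ± 7.20 to 0% and Rcn3, a calcium-binding protein of the endoplasmic reticulum, from 70.7% ± 9.27 to 0.0921% ± 0.160. At matched covered length the calls of Ptcra (-22.4 points), Cyp2d22 (-17.8), Nim1k (-22.0), Dnajc6 (-15.4) and Ldlrad3 (-12.6) ended, with those of Ptcra (-22.4), Cyp2d22 (-17.8) and Ldlrad3 (-14.5) ending also at −log10 q of at least 5. That of Ttc28 ended within the first 5 kb (-10.1 points).

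Shortened genes made up most of the losses, and they lost more points over the middle of the gene than at either end. Over the 1180 shortened genes of at least 10 kb with known strand, coverage of the first of 20 equal bins was 84.1% in naive and 66.2% in Th1 cells. In bin 10 it was 78.6% against 27.6%, in bin 19 it was 39.2% against 9.20%, and in the last bin 30.4% against 8.77%. Naive coverage was itself lower in the last bins, so fewer points could be lost there than in the middle. Extended genes (203 with known strand) differed along their whole length, with 34.1% against 75.3% in the first bin and 6.72% against 32.8% in the last. Newly covered genes (41) stood at 81.8% in the first bin, reached 97.5% in bin 7 and stood at 21.8% in the last, and the 43 emptied genes had a like slope in naive cells, from 85.3% to 28.7%. In 1618 genes of at least 50 kb a stretch touched the first 2 kb in all 6 lists. The far end of that stretch, its reach, lay at a median distance from the gene start of 29.6, 29.6 and 30.6 kb in the naive lists and 22.5, 19.8 and 19.7 kb in the Th1 lists. The difference was -9.25 kb (exact permutation p = 0.1), and the reach was shorter in every Th1 list than in every naive list for 54.7% of these genes and longer for 9.27%. In percent of the gene body covered, the lists stood apart in the same way for 54.3% and 14.7% of all 11206 tested genes. The share with a shorter reach is thus near that of lower coverage over all genes.

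**Figure D3:**
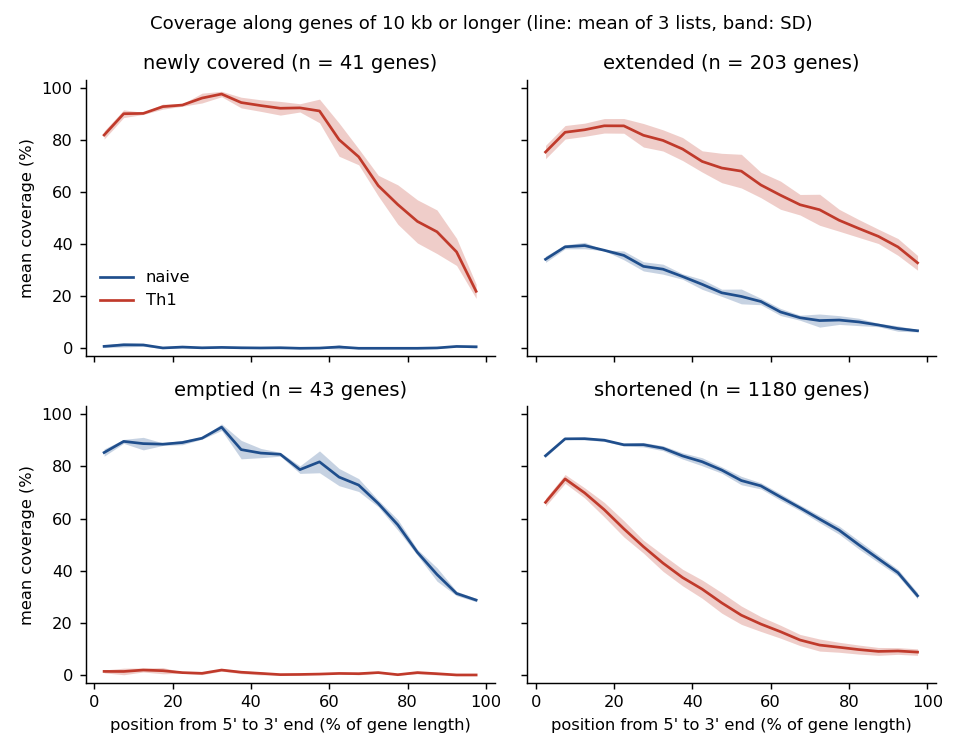
Mean coverage in percent along gene bodies cut into 20 equal bins from 5′ to 3′ end, for genes of at least 10 kb with known strand in each class. Lines are means of 3 naive (blue) and 3 Th1 lists (red), bands are SD, and in the shortened class the lines lie closer together at the 5′ end than over the middle of the genes.

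Slc9a9, a sodium and proton exchanger of endosomes (chr9:94669557-95230453), was covered over 75%, 73.1% and 75.9% in the naive lists and over 8.04%, 6.35% and 4.81% in the Th1 lists. In the Th1 lists the stretch nearest the start of Slc9a9 ended at 12.3 to 12.5 kb. Itpr2, an IP3 receptor that releases calcium from the endoplasmic reticulum (chr6:146108299-146502258), fell from 74.8% ± 2.31 to 23.2% ± 2.05 (adjusted p = 2.3e-05) with 52.2, 52.2 and 25.9 kb of reach left in the Th1 lists. In Th1 list 3 the next stretch began at 26.7 kb, and coverage ran on with short gaps to 52.2 kb. Arhgap15, which turns off Rac, kept 69.0, 82.5 and 82.5 kb of a reach of 135 kb. Acss2, an enzyme that makes acetyl-CoA from acetate, had a reach of 34.1, 34.3 and 34.2 kb in the naive lists and of 4.33, 2.79 and 4.18 kb in the Th1 lists. Calcrl, a receptor of the calcitonin family, fell from 84.7% ± 1.55 to 8.49% ± 2.57 and Lrrc28, a leucine-rich repeat gene, from 71.0% ± 1.45 to 12.2% ± 4.15. Paqr8, a membrane progestin receptor, fell from 79.1% ± 0.830 to 8.06% ± 5.96. Other members lost the start too: Ank, a pyrophosphate transporter, had no stretch in its first 2 kb in Th1 lists and a reach of 24.5, 31.9 and 51.9 kb in naive lists. Rflnb, which binds filamin, fell from 100% to 3.71% ± 1.40, Gdpd3, a phosphodiesterase, from 100% to 20.1% ± 8.17, and Art4, an ADP-ribosyltransferase, from 92.1% ± 6.85 to 9.79% ± 8.63. Pcbd2, a pterin dehydratase, fell from 87.1% ± 2.14 to 22.5% ± 4.90. At matched covered length the calls of Slc9a9 (-21.4 points), Itpr2 (-13.1), Arhgap15 (-5.47), Ank (-32.6) and Pcbd2 (-20.9) ended, and at −log10 q of at least 5 those of Itpr2 (-19.0) and Arhgap15 (-24.6). Within the first 5 kb those of Slc9a9 (-11.9), Itpr2 (-4.19) and Pcbd2 (-18.2) ended.

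**Figure D4:**
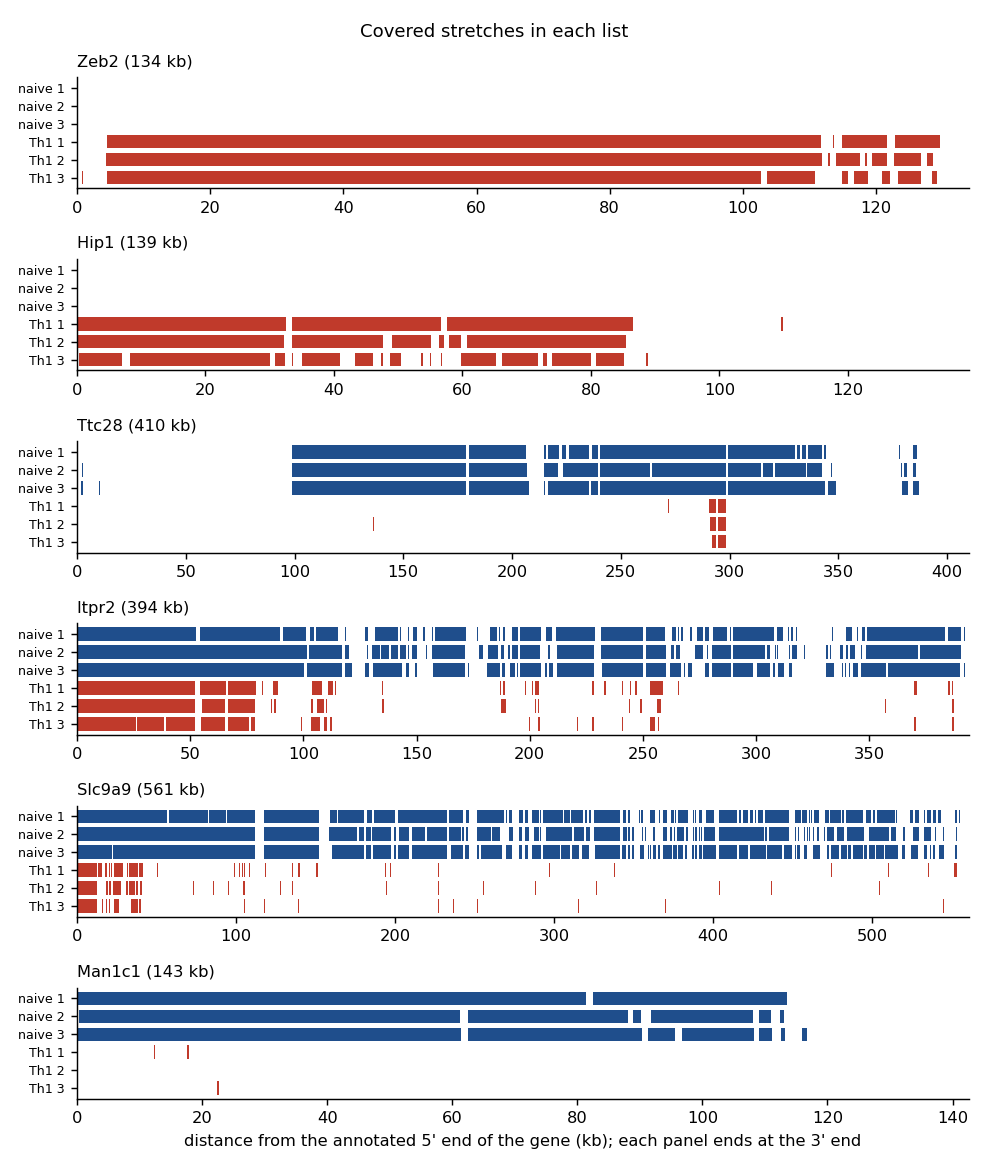
Covered stretches in each naive list (blue) and Th1 list (red) along 6 genes, by distance in kb from the annotated 5′ end. Zeb2 and Hip1 are bare in naive lists, Ttc28 and Man1c1 nearly bare in Th1 lists, and Itpr2 and Slc9a9 keep mainly the stretches near the 5′ end in Th1 lists.

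In very long genes a change of many kb could stay under 25 points. By a difference of at least 10 kb in place of 25 points, 305 genes (2.72%) were higher and 1588 (14.2%) lower, of which 104 and 746 had not been called in percent. Sox5, a transcription factor gene (chr6:143828425-144782287), was covered over 0.420%, 0.625% and 0.346% in the naive lists and over 22.0%, 20.9% and 18.8% in the Th1 lists. That is 192 kb more, with a reach of 111, 92.6 and 50.03 kb where naive lists had none. Maml3, a Notch coactivator, gained 59.3 kb, Dip2c 58.8 kb, Frmd4b, a scaffold of the FERM family, 58.7 kb and Diaph3, a formin, 54.4 kb. The largest such losses were those of Cdkal1, which modifies a transfer RNA (-164 kb), Exoc4, of the exocyst (-153 kb), Utrn, the dystrophin relative utrophin (-118 kb), Elmo1, a partner of Dock proteins (-107 kb), and Bbs9, of the BBSome (-97.2 kb). Elmo1 kept a reach of 173 kb in all lists but Th1 list 3, which had 20.6 kb, although its longest stretch in that list was 151 kb. Utrn had a reach of 27, 119 and 119 kb in the Th1 lists against 1.50, 1.66 and 1.74 kb in the naive lists, 56.9 points higher in the first 5 kb. Naive lists still held long stretches farther into Utrn. Its longest stretch was 133, 113 and 135 kb in the naive lists and 91.6, 118 and 118 kb in the Th1 lists. Calls ended at matched length for Cdkal1 (-0.945 points), Utrn (-2.17), Elmo1 (-6.87) and Bbs9 (-3.55), and Exoc4 turned to 11.5 points. Those of Maml3 ended with all genes kept in the fit, with the replicate block, and without naive list 1, 2 or 3 or Th1 list 2 (13.7 to 15.3 points), and that of Dip2c at −log10 q of at least 5 (10.7 points). In the first 5 kb Diaph3 (-0.687 points) and Bbs9 (5.88 points) turned, and Dip2c (7.56), Cdkal1 (-0.833), Exoc4 (-1.95) and Elmo1 (-0.753) were not called.

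Called genes also stood side by side. Runs of at least 3 neighbouring protein-coding genes called in the same direction numbered 13 for gains, with 45 of the 503 genes called higher. For losses they numbered 54, with 179 of the 1887 genes called lower. Overlapping genes share covered bases and can be called together, and some runs hold them. In a run of losses on chromosome 3, Gm128, Bnipl, Prune1 and Mindy1, all 4 genes overlap another. Whether runs were more frequent than the share of called genes would give was not tested. The longest run of gains held 7 genes on chromosome 6, Gabarapl1, Klre1, Klrd1, Klrk1, Klrc3, Klrc2 and Klrc1, over 149.7 kb, with gains of 43.8 to 88.5 points. Klr genes encode lectin-like receptors of NK and T cells. Next to it were Il21, Cetn4, Bbs12 and Fgf2 on chromosome 3 (30.7 to 93.4 points), and Kctd17, Tmprss6, Il2rb and C1qtnf6 on chromosome 15 (42.8 to 73.9 points). The chemokine receptor genes Cxcr2 and Cxcr1, beside Rufy4 on chromosome 1, reached 88.1% ± 11.9 and 100% from 0%. Fes, Furin and Blm on chromosome 7 gained 33.2 to 57.2 points. The longest run of losses held 6 genes on chromosome 6, Gm1070, Cd8b1, Cd8a, Rmnd5a, Rnf103 and Chmp3, with losses of -27.3 to -100 points. In it Cd8b1, like Cd8a a marker of CD8 T cells, was at 100% in each naive list and at 7.62%, 11.9% and 7.55% in the Th1 lists. A run of 5 interferon-inducible Ifi genes on chromosome 1, Ifi206, Ifi214, Ifi213, Ifi209 and Ifi208, lost -43.1 to -89.4 points. Klr and Ifi genes are families of similar copies, and how the authors treated reads that fit several copies is not given in the sources used here, so single values there are uncertain. Calls ended for Klrc2 with all genes kept in the fit or without naive list 1, 2 or 3 or Th1 list 2 (43.8 to 45.2 points) and for Chmp3 without Th1 list 3 (-22.9 points). At −log10 q of at least 5 those of Klrc2 (12.9), Klrc3 (26.8), Rufy4 (25.4), Tmprss6 (7.22), Fes (25.2), Blm (14.3) and Chmp3 (-38.0) ended, at matched length that of Chmp3 (-19.1), and after centring those of Rmnd5a (-22.7) and Chmp3 (-18.7). With peaks under 1 kb apart joined that of Chmp3 (-23.5) ended. In the first 5 kb those of Blm (3.05), Rufy4 (42.7), Gm1070 (-34.2), Rmnd5a (-5.47), Rnf103 (-18.3), Chmp3 (-3.29), Ifi209 (-5.87) and Ifi214 (-19.5) ended.

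Gene lists of T cell function were then counted, 20 lists with 567 genes, of which 475 were tested. Over all lists 16.6% of tested genes were higher and 12.2% lower, against 4.49% and 16.8% of all genes. The lists were drawn up for T cells with earlier results of these data known, so the difference is a description. The counts of each list below stand against the same shares over all genes, and no list was tested against them. Counts called lower were near or under 16.8% for T cell receptor, homing, Notch, phosphoinositide and chromatin genes. In cells of mixed kinds fewer marked cells and less of the mark per cell cannot be told apart.

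**Figure D5:**
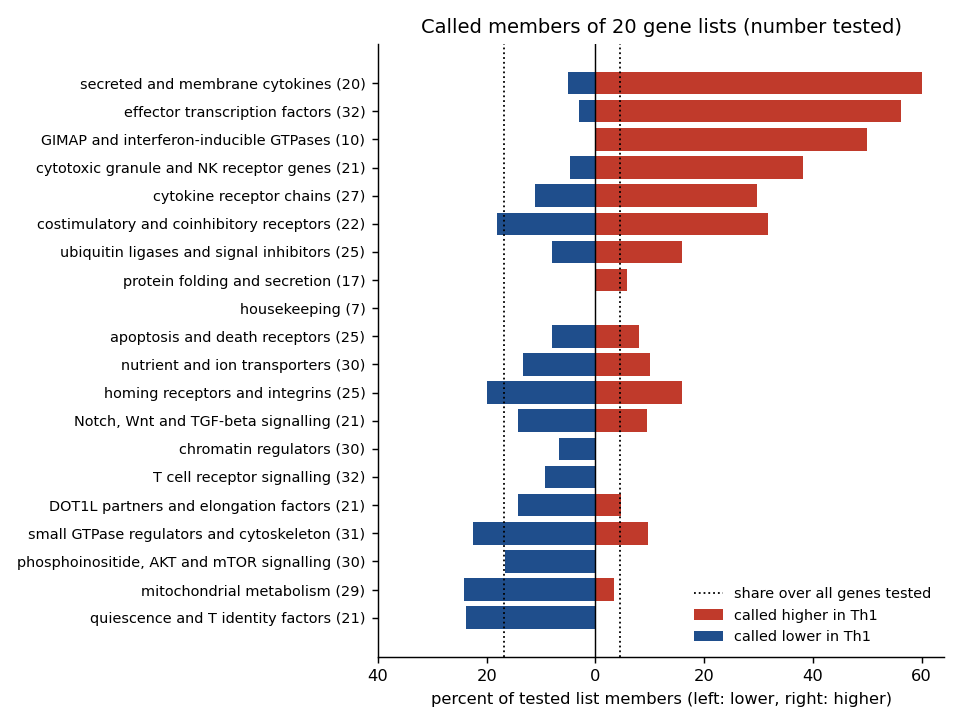
Percent of tested members of each of 20 gene lists called higher (red, to the right) or lower (blue, to the left) in Th1 cells, with the number tested in brackets and dotted lines at 4.49% and 16.8%, the shares over all 11206 genes tested. Cytokines, effector transcription factors and interferon-inducible GTPases reach farthest to the right and mitochondrial and quiescence genes farthest to the left.

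Signals from outside the cell were split by type. Of 32 tested genes of T cell receptor signalling none was called higher and 3 lower by limma, with a median difference of -0.453 points (8.08 after centring), and at an unadjusted p under 0.05 the counts were 5 and 14. Txk, a Tec kinase, fell from 87.0% ± 3.84 to 57.4% ± 3.52 and Plcg1, a phospholipase gene that overlaps another, from 97.1% ± 1.46 to 72.0% ± 4.66. The calls of Txk (-21.1 points) and Plcg1 (-16.6) ended after centring. At matched length Txk turned to 0.481 points and Plcg1 (-21.3) was not called, nor were Txk (-6.43) and Plcg1 (-24.4) at −log10 q of at least 5. Plcg1 was also lost without Th1 list 2 or 3 or naive list 1 or 3 (-23.0 to -24.9 points), with peaks under 1 kb apart joined (-24.5) and in the first 5 kb (-1.88). The kinase genes Lck, at 100% and 98.6%, and Zap70, at 87.2% and 89.5%, were picked after their values were seen and were not called.

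Of 27 tested cytokine receptor chains 8 were higher and 3 lower, with a median of 0.183 points. Il12rb2, a signalling chain for IL-12 whose gene overlaps another, was at 28.6%, 27.8% and 31.5% in the naive lists and at 97.8%, 94.7% and 96.6% in the Th1 lists. Il23r, the IL-23 receptor, rose from 0% to 62.8% ± 11.8 and Il2ra, the high-affinity IL-2 receptor chain, from 38.5% ± 0.910 to 91.9% ± 1.42. Ifngr2, the signalling chain of the IFNg receptor, was at 72.9%, 73.1% and 72.9% in the naive lists and at 0% in each Th1 list (adjusted p = 1.3e-06). Its partner Ifngr1, which binds IFNg, was at 92.7% and 92.0%, was not called and was picked after its values were seen. Il17rb, a receptor for IL-25, fell from 67.8% ± 15.8 to 0% and Ifnar2, of the type I interferon receptor, from 97.9% ± 1.80 to 64.5% ± 6.78. Ifnar2 was not called after centring (-24.9 points), and in the first 5 kb Ifngr2 (-8.27), Il23r (52.8) and Il2ra (1.43) were not.

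Costimulatory and coinhibitory receptors held 7 genes higher and 4 lower of 22 tested, with a median of 4.02 points. Slamf7, a receptor of the SLAM family, was at 19.0%, 18.4% and 16.7% in the naive lists and at 100% in each Th1 list (adjusted p = 1.9e-06). Entpd1, the CD39 enzyme that breaks down extracellular ATP, rose from 0.0707% ± 0.122 to 39.5% ± 6.64, while Nt5e, the CD73 enzyme that acts after it, fell from 54.7% ± 2.38 to 19.3% ± 5.42. Cd96 fell from 68.3% ± 1.43 to 13.3% ± 1.64 and Cd226 from 81.9% ± 2.24 to 40.3% ± 10.0, whereas Tigit, which binds the same nectin-like ligands, rose from 19.1% ± 2.36 to 50.3% ± 3.84. Cd200r1, an inhibitory receptor, fell from 89.5% ± 1.66 to 35.0% ± 7.27. Tigit was chosen after its values were seen and overlaps another gene. The call of Entpd1 (22.0 points) ended at −log10 q of at least 5, that of Nt5e at matched length (-3.39 points), and those of Nt5e (-7.87) and Cd96 (-6.33) in the first 5 kb.

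Homing receptors and integrins held 4 genes higher and 5 lower of 25 tested, with a median of -2.13 points (6.40 after centring, 0.883 at matched length). Ccr2, a chemokine receptor of inflamed tissue, and Cxcr3, the receptor for interferon-induced chemokines, were at 0% in each naive list. In the Th1 lists Ccr2 was at 100% and Cxcr3 at 85.3%, 94.6% and 92.7%. Ccr9, the gut-homing receptor, went from 100% in each naive list to 0% in each Th1 list. Itga4, which overlaps another gene, and Itga6, both integrin alpha chains, fell from 72.1% ± 1.34 to 22.9% ± 1.67 and from 85.3% ± 4.99 to 43.4% ± 0.416, and Cxcr5, which overlaps another gene, from 100% to 61.1% ± 10.8. At matched length the calls of Itga4 (-9.82 points) and Itga6 (-17.9) ended, and that of Itga4 also at −log10 q of at least 5 (-22.4) and in the first 5 kb (-2.92).

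Among secreted and membrane cytokines 12 of 20 tested genes were higher and 1 lower, with a median difference of 36.5 points. Ifng, Il10 and Ccl3 were at 0% in each naive and at 100% in each Th1 list, but Ifng was the sort reporter and is no independent result, and Ccl3 overlaps Ccl4. Lif went from 0% to 97.6%, 96.1% and 97%. Tnfsf11, the RANK ligand gene, fell from 86.9% ± 2.60 to 27.9% ± 4.03. The call of Ccl3 ended at −log10 q of at least 5 (66.7 points). Cytotoxic granule and NK receptor genes held 8 higher and 1 lower of 21 tested, with a median of 14.5 points. Gzmb and Nkg7 were at 0% in each naive and at 100% in each Th1 list, and Stx11, a fusion protein of granule release, rose from 10.1% ± 1.14 to 96.3% ± 0.1. Gzma, which overlaps another gene, fell from 30.7%, 41.0% and 52.3% to 0% in each Th1 list.

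Transcription factors were split into those of effector cells and those of quiescence. Of 32 tested effector factors 18 were higher and 1 lower, with a median difference of 34.7 points (43.2 after centring, 47.0 at matched length). Tbx21 (T-bet), Hlx and Batf3 went from 0% in each naive list to 99.8% or more in each Th1 list, and Bhlhe40 from 0% to 99.8% ± 0.231. Ikzf2, the Helios factor, was at 81.5%, 83.2% and 84.4% in the naive lists and at 61.2%, 35.0% and 27.2% in the Th1 lists, which differed widely among themselves. Of 21 tested quiescence and T identity factors none was higher and 5 were lower by limma, 0 and 17 at an unadjusted p under 0.05. Their median difference was -8.15 points (0.381 after centring). Over all 11206 tested genes 16.8% were called lower, and 7218 had an unadjusted p under 0.05 in either direction. Tox, a nuclear factor of T cell development, fell from 99.3%, 99.6% and 98.9% to 36.8%, 37.4% and 51.3%, and Myb from 94.7% ± 1.32 to 58.1% ± 8.72. Zbtb20, at 48.7% ± 2.98 and 5.32% ± 0.605, and Klf3, at 84.0% ± 2.72 and 46.4% ± 6.10, overlap other genes. The call of Zbtb20 ended at matched length (-14.7 points) and at −log10 q of at least 5 (-20.4), and in the first 5 kb Zbtb20 (-10.8) and Klf3 (-9.92) were not called and Myb turned to 2.90 points.

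Notch, Wnt and TGF-beta signalling held 2 genes higher and 3 lower of 21 tested, with a median of -8.06 points (0.476 after centring). Dtx1, the Notch target deltex, was at 100% in each naive list and at 4.85%, 3.94% and 7.97% in the Th1 lists (adjusted p = 2.2e-06). Tle4, a Groucho corepressor, fell from 93.9% ± 0.232 to 27.6% ± 2.51 and Smurf2, a ubiquitin ligase for SMAD proteins, from 97.9% ± 0.987 to 54.5% ± 0.520. Fzd7, a Wnt receptor, went from 0% in each naive list to 97%, 99.3% and 98.1%, and Furin, a protease that cleaves pro-TGF-beta, rose from 66.7% ± 5.69 to 99.9% ± 0.192. Smurf2 was not called in the first 5 kb (-4.09 points). Ubiquitin ligases and signal inhibitors held 4 higher and 2 lower of 25 tested, with a median of 2.92 points. Rgs16, Spry1 and Rgs1, brakes on receptor signals, reached 98.9% or more in each Th1 list from naive means of 8.16% ± 10.4, 29.3% ± 20.7 and 36.9% ± 17.4. Socs2, an inhibitor of cytokine signals, rose from 0% to 46.3% ± 2.89. The related ligases Nedd4l and Nedd4 fell from 79% ± 0.930 to 22.4% ± 2.90 and from 57.0% ± 1.54 to 14.6% ± 7.6, and the call of Nedd4 ended at matched length (-12.7 points) and in the first 5 kb (-4.08).

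Signalling below the receptors followed. None of 30 tested phosphoinositide, AKT and mTOR genes was called higher and 5 were lower by limma, 1 and 23 at an unadjusted p under 0.05, with a median of -13.1 points (-4.61 after centring, -2.91 at matched length). The count called lower lies near the share of 16.8% over all tested genes. Of all 11206 genes 7218 had an unadjusted p under 0.05 by limma in either direction. Rictor, the defining subunit of mTOR complex 2, fell from 78.6% ± 1.12 to 51.0% ± 0.0900, and Pik3ip1, an inhibitor of PI3 kinase, from 100% to 68.9% ± 3.60. Prkce, a protein kinase C gene, fell from 55.5% ± 0.616 to 15.0% ± 2.12, Prkcb, another, from 73.0% ± 0.833 to 40.5% ± 1.66, and Inpp4b, which overlaps another gene, from 81.1% ± 2.20 to 45.3% ± 4.30. Rictor was chosen after its values were seen. At matched length Inpp4b turned to 5.08 points and the calls of Prkce (-10.6) and Prkcb (-11.8) ended. After centring those of Pik3ip1 (-22.5) and Prkcb (-24.0) ended, and at −log10 q of at least 5 that of Inpp4b (-19.6). In the first 5 kb Prkcb (-4.17) and Inpp4b (-1.10) were not called.

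Small GTPase regulators and cytoskeletal genes held 3 higher and 7 lower of 31 tested, with a median of -4.19 points (4.34 after centring, 0.332 at matched length). Rasgrp2, an activator of Rap1 that serves integrins, fell from 89.8% ± 3.14 to 21.2% ± 2.80 and Arhgef18, an exchange factor for small GTPases, from 83.1% ± 0.902 to 29.8% ± 4.41. Srgap3, a GTPase activator, rose from 0% to 57.9% ± 5.03 and Myo1f, a motor protein, from 1.08% ± 1.53 to 38.2% ± 0.950. Tiam1, a Rac activator, fell from 67.6% ± 1.62 to 26.9% ± 5.18, and Dock8, which overlaps another gene, from 61.5% ± 2.33 to 22.6% ± 2.93, although Dock8 was 27.4 points higher in the first 5 kb. The call of Tiam1 ended at matched length (-2.76 points), at −log10 q of at least 5 (-17.9) and in the first 5 kb (-5.82), and that of Rasgrp2 there as well (-20.3). Among 30 tested transporters 3 were higher and 4 lower, with a median of 2.30 points. Atp2b4, a calcium pump of the plasma membrane, rose from 0.0861% ± 0.149 to 66.8% ± 3.67, Slc16a3, a lactate exporter that overlaps another gene, from 40.8% ± 10.1 to 100%, and Slc1a4, a neutral amino acid transporter, from 0% to 31.3% ± 3.82. Besides Slc9a9 and Itpr2, Slc25a12, a mitochondrial carrier, fell from 63.6% ± 4.48 to 38.4% ± 3.53. The call of Slc1a4 ended at −log10 q of at least 5 (10.8 points). That of Slc25a12 ended under this setting (-17.6), at matched length (-11.6), after centring (-16.7) and without naive list 1 or 3 or Th1 list 3 (-23.2 to -24.1).

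Mitochondrial genes held 1 higher and 7 lower of 29 tested, with a median of -14.7 points (-6.19 after centring, -9.67 at matched length). Polrmt, the mitochondrial RNA polymerase, was at 87.0%, 91.2% and 88.1% in the naive lists and at 27.4%, 26.2% and 20.5% in the Th1 lists (adjusted p = 2.2e-05). Idh2, a dehydrogenase of the citric acid cycle, fell from 100% to 51.6% ± 3.80 and Polg, the mitochondrial DNA polymerase, which overlaps another gene, from 74.8% ± 7.91 to 32.8% ± 8.50. Ndufv1, of complex I, went from 86.2% ± 12.1 to 56.0% ± 9.93. Its call ended with all genes kept, on the arcsine scale, after centring (-21.7 points) and without naive list 1 (-23.3) or Th1 list 2 (-26.9) or 3 (-27.8). Hspe1, a mitochondrial chaperonin that overlaps another gene, rose from 69.8% ± 8.02 to 100%. In the first 5 kb Polg was not called (-18.3 points).

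Apoptosis genes held 2 higher and 2 lower of 25 tested, with a median of -0.0727 points (8.46 after centring, 0.328 at matched length). Pmaip1, the BH3 protein NOXA, went from 0% in each naive list to 100%, 100% and 98.1% (adjusted p = 1.1e-06). Bid fell from 71.4% ± 4.76 to 41.2% ± 7.92 and Bad, which overlaps another gene, from 91.8% ± 4.36 to 52.0% ± 8.79. Bid was not called after centring (-21.7 points) and turned to 2.10 points in the first 5 kb, where Bad was not called (-17.0). Of 17 tested genes of protein folding and secretion 1 was higher and none lower by limma, 3 and 1 at an unadjusted p under 0.05, with a median of 4.87 points. Atf6, a sensor of unfolded proteins that overlaps another gene, rose from 18.5% ± 2.20 to 54.2% ± 7.24. Its call ended at −log10 q of at least 5 (23.6 points).

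Genes of the machinery of the mark itself were called about as often as all genes. Of 21 tested DOT1L partners and elongation factors 1 was higher and 3 lower, with a median of -11.7 points (-3.16 after centring). These counts lie near the shares of 4.49% and 16.8% over all tested genes. Ell2, a subunit of the super elongation complex, was at 0% in each naive list and at 81.4%, 76.8% and 68.1% in the Th1 lists (adjusted p = 4.2e-05). Aff3, a relative of the AFF scaffolds of that complex, fell from 81.6% ± 0.670 to 47.0% ± 4.65, Eaf1, an ELL-associated factor, from 92.5% ± 2.33 to 60.8% ± 12.8 and Supt6, an elongation factor that overlaps another gene, from 90.2% ± 3.08 to 50.2% ± 3.76. At matched length the calls of Aff3 (-22.9 points) and Supt6 (-10.0) ended, after centring that of Eaf1 (-23.2), and at −log10 q of at least 5 that of Supt6 (-22.9). Aff3 was not called in the first 5 kb (-3.59). None of 30 tested chromatin regulators was higher and 2 were lower by limma, 4 and 17 at an unadjusted p under 0.05, with a median of -6.39 points (2.15 after centring). Crebbp, an acetyltransferase, fell from 94.1% ± 1.58 to 68.5% ± 0.381 and Kdm5a, a histone demethylase that overlaps another gene, from 96.9% ± 0.642 to 70.0% ± 10.7. Neither was called after centring (-17.1 and -18.4 points), and Crebbp was not called at matched length (-10.1), at −log10 q of at least 5 (-13.1), without naive list 2 (-24.9) or in the first 5 kb (-7.83). Kdm5a was lost without Th1 list 3 (-22.4) and with peaks under 1 kb apart joined (-23.5).

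Of 10 tested GIMAP and interferon-inducible GTPases 5 were higher and none lower by limma, 6 and 1 at an unadjusted p under 0.05, with a median of 17.8 points. Gbp3, Gbp5 and Gbp7, neighbours on chromosome 3 whose products attack vacuoles of pathogens, rose from 18.2% ± 2.86 to 88.1% ± 0.776, from 33.5% ± 2.38 to 81.5% ± 0.613 and from 52.1% ± 4.32 to 100%. Iigp1 rose from 55.7% ± 5.10 to 92.7% ± 6.29. Of the rest of this list 11 were at 100% in every list. Gbp genes are similar copies, so single values are uncertain. No call was made among 7 tested housekeeping genes by limma, with 2 higher and 2 lower at an unadjusted p under 0.05 and a median of -1.90 points (6.63 after centring, 0.458 at matched length).

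The labelled cell type was checked against markers. All 10 T cell markers were covered in both groups, at a naive mean of at least 74.2%, and Cd4 was at 83.5% and 83.2%. Trat1, a receptor-associated adaptor, was the exception and fell from 74.2% ± 2.32 to 14.1% ± 4.92. The B cell markers Ms4a1 and Pax5, the myeloid markers Lyz2, Csf1r and Cd14 and the NK marker Ncr1 were listed at 0% in all 6 lists. Of 10 myeloid markers 7 were at 0% throughout. Itgam (9.32% and 1.42%), Itgax (11.0% and 0.464%) and Spi1 (5.72% and 1.01%) were higher in every naive list than in every Th1 list and were not called. The summed coverage of the myeloid markers was 22.0% to 28.4% in the naive lists and 1.51% to 3.99% in the Th1 lists. The CD8 markers Cd8a and Cd8b1 were both at 100% in each naive list, with a summed coverage of 200% there and 7.55% to 11.9% in the Th1 lists. By these markers the naive lists cannot be read as those of CD4 cells alone. The naive sort as given names CD44 and CD62L but not CD4, and the share of CD8 cells in it was not tested. The summed coverage of 6 NK markers was 100% in each naive list, all from Tyrobp, and 124% to 152% in the Th1 lists, mostly from Klre1, which rose from 0% to 88.5% ± 8.39, while Tyrobp fell from 100% to 45% ± 9.34. The summed coverage of 9 B cell markers was 143% to 196% in the naive lists and 100% to 101% in the Th1 lists, where Cd79a alone was at 100% and Cd79b went from 54.3% ± 25.9 to 0%. The part of other cells in the genes named above was not tested.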

How the data were processed

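H3K79me2 was measured by ChIP-seq in 3 naive and 3 Th1 libraries. The authors deposited 1 broad peak list per library, of which the peak starts and ends and the −log10 q value of each peak were used. Bowtie2, Picard, SAMtools, MACS2 and mm10 are named per the submitters' processing notes; versions, settings and the use of inputs are not given in the sources used here. The authors' −log10 q values served only to rank or filter peaks within a list. Depth is not in the lists, so no counting interval was made.

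Peaks were merged per list and intersected with 21631 protein-coding genes of RefSeq, of which 3841 (17.8%) overlap another; strand was known for 79.9%. Percent of the gene body covered was tested with limma 3.58.1 in R 4.3.3 (trended variance, Benjamini-Hochberg adjustment) over the 11206 genes that were not constant; values per list were compared by exact permutation. Python 3.11.15 with numpy 2.4.6, pandas 2.3.3 and matplotlib 3.10.9 did the rest. In simulated data on 11206 genes for this comparison, gains of 30 and 50 points were recovered to 86% and 98%, losses to 76% and 92%, with 1 false call. All simulated lists were built from the naive means and held no list-wide difference in coverage, unlike the real lists. The false call thus says nothing about calls that come from such a difference. Named are the 3 non-overlapping genes with the largest change in kb per class and length class, the 5 largest kb-only changes per direction, up to 4 called members per list and direction, and runs of neighbours. Genes and lists were chosen with earlier results of these data known. Alternatives were other peak filters, joining, matched covered length, centring, other gene sets, scales and variance models, a replicate block, each list left out and the first 5 kb of the gene. Th2 libraries were not used here. Some items are not reported here.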

Additional observations from a re-analysis of the deposited data

How the results depend on the processing

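The counts of 503 genes higher and 1887 lower moved by less than 1.5 times under every alternative but matched covered length, centring and the first 5 kb of the gene, which gave 440 and 1026 calls among 6695 tested genes. A stable count did not mean the same genes: at −log10 q of at least 5 the counts were 440 and 1633, of which 326 and 1138 were among the 503 and 1887, and 160 genes were newly covered. At matched covered length 801 genes were higher and 1009 lower, 607 and 667 by kb, with 250 newly covered, 47 emptied and 962 shortened genes. There the covered length differed by 0.00348 Mb by construction, genes covered over at least 50% by -428, stretches per gene by 1.13 and the share of bases in genes by -1.22 points. With lists centred 1158 genes were lower, 852 higher and 904 lower by kb, 635 extended and 1067 shortened. At −log10 q of at least 5, stretches per gene differed by -0.0127 and 191 genes were emptied, and with peaks under 1 kb apart joined stretches differed by -0.0339. The cause was not tested. Alternatives for the 4 classes and for the reach of the mark were chosen after seeing the data. Leaving out 1 list gave 477 to 533 genes higher and 1781 to 2067 lower. The replicate block gave 499 and 1861, and replicate numbers do not pair the lists (correlations of same-numbered deviations -0.0275, 2e-04 and -0.0154). Of 3033 values of named genes under alternatives 2883 kept their call, 141 lost it and 9 changed sign. In the first 5 kb Bbs9 (5.88 points), Bid (2.10), Diaph3 (-0.687), Dock8 (27.4), Myb (2.90) and Utrn (56.9) did, and at matched length Exoc4 (11.5), Inpp4b (5.08) and Txk (0.481). Coverage in percent, unknown depth and 3 lists a group limit what could be called.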
